A study of Mus musculus with 4 samples.

Results

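Transcript levels of 10 genes of the calcineurin and NFAT (nuclear factor of activated T cells) calcium pathway were examined in follicular helper T (Tfh) cells, which help B cells in germinal centres. The genes were chosen by symbol. They comprise the transcription factors Nfatc1, Nfatc2 and Nfatc3, the calcineurin subunits Ppp3ca, Ppp3cb and Ppp3r1, the calcineurin regulator Rcan1, and the store-operated calcium entry genes Orai1, Stim1 and Stim2. All 10 had a row among the 23997 genes of the deposited table, and all 10 reached a mean of 1 FPKM (the number of sequenced fragments of a gene, scaled by the authors for transcript length and library size) over the libraries, as did 11187 genes in all. The libraries came from 2 Apoe-/- samples (labelled Apoe-KO) and 2 wild-type (WT) samples. Apoe encodes apolipoprotein E, a carrier protein that clears lipoproteins from blood, and mice without it have high cholesterol and develop atherosclerosis. All mice were 13 weeks old, on the C57BL/6 strain, and cells were taken from spleen and lymph nodes. The labels give neither the sorting of the cells nor whether a library holds 1 animal or a pool, so p-values measure only the spread between libraries, which may be technical. Diet and other treatment are not given in the labels.

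In T cells, engagement of the antigen receptor leads to release of calcium from the endoplasmic reticulum. STIM proteins in its membrane sense the loss and open ORAI channels in the plasma membrane. The calcium that enters binds calmodulin and activates the phosphatase calcineurin, a dimer of a catalytic A subunit and a regulatory B subunit. Calcineurin removes phosphates from NFAT factors, which then enter the nucleus and act with partners such as AP-1 on cytokine and activation genes. Kinases such as GSK3, DYRK and casein kinase 1 reverse that step. NFAT factors are known for driving Il4 and Il21 in helper T cells, and Nfatc1 and Nfatc2 for supporting Tfh differentiation.

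None of the 10 genes passed the test between Apoe-/- and WT Tfh cells. By limma, with Benjamini-Hochberg adjusted p-values across the 11187 tested genes, 0 of 10 were higher and 0 of 10 lower at an adjusted p under 0.05, a call made for 0.948% of tested genes in the higher direction and 0.885% in the lower direction. At an unadjusted p under 0.05, 0 of 10 were higher and 2 of 10, Nfatc2 and Orai1, were lower, against 11.6% and 8.27% of tested genes. The Apoe-/- and WT libraries did not overlap for 6 of the 10 (Nfatc2, Ppp3ca, Rcan1, Orai1, Stim1 and Stim2), each lower in Apoe-/- cells, where 22.9% of tested genes were lower without overlap. None of the 10 was higher without overlap, against 27.5% of tested genes. The median difference over the 10 genes was -0.14 on the log2(FPKM + 1) scale, -0.15 between the libraries numbered 1 and -0.13 between those numbered 2, while the median over all tested genes was 0.00.

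**Figure D1:**
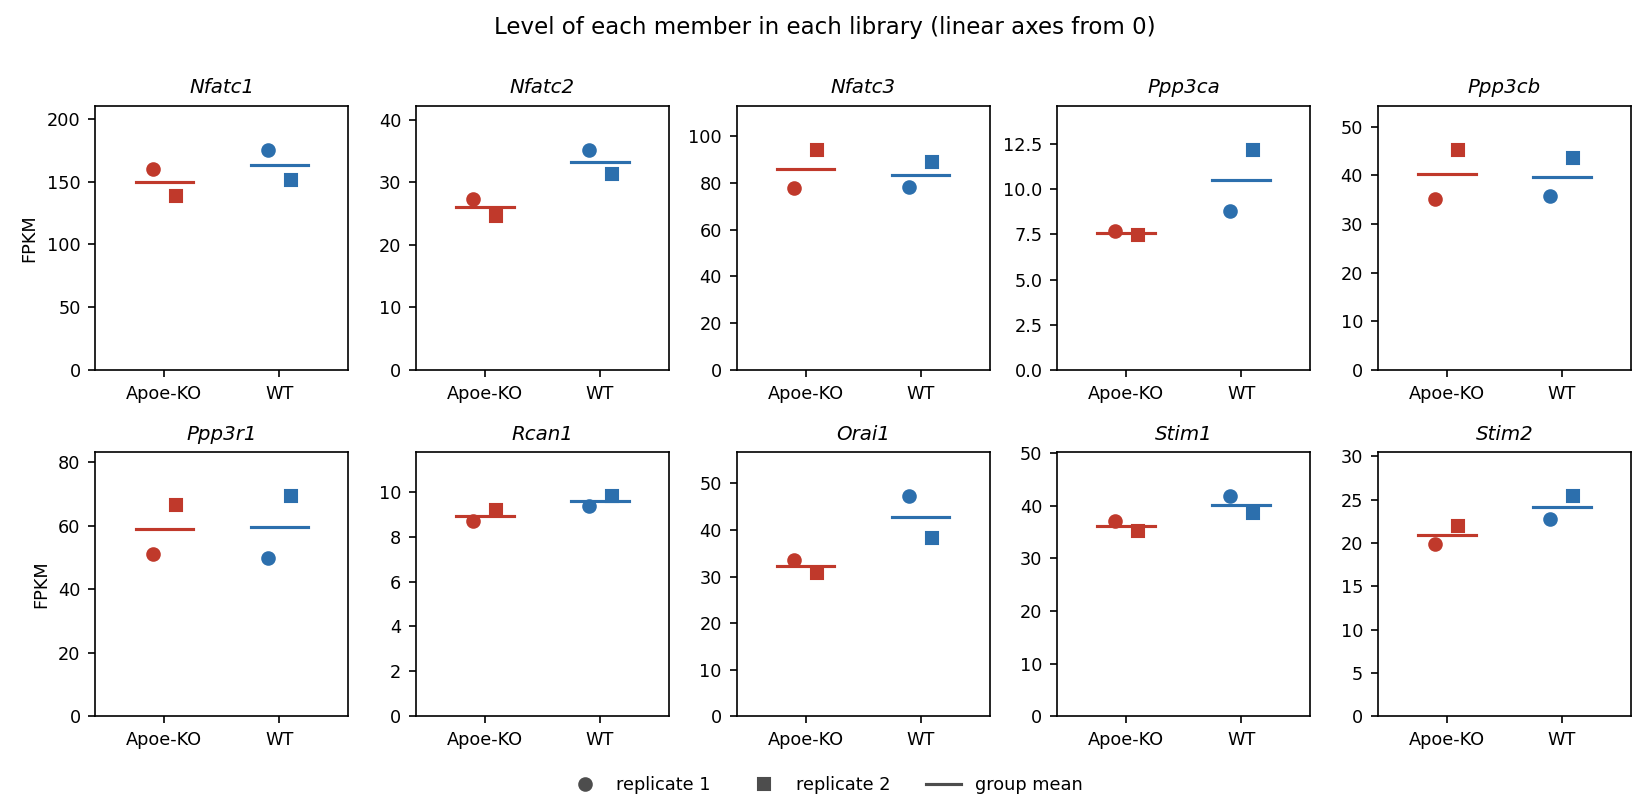
FPKM of the 10 pathway genes in each library, with Apoe-KO in red and WT in blue; replicate 1 is a circle, replicate 2 a square, and the line is the group mean. The groups stand apart for 6 genes, such as Orai1 (33.6 and 30.8 against 47.3 and 38.2 FPKM), and overlap for Nfatc1, Nfatc3, Ppp3cb and Ppp3r1.

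Levels per length ranked Nfatc1 first, with a mean of 156 FPKM over the 4 libraries, followed by Nfatc3 at 84.6 and Ppp3r1 at 59.2 FPKM. The ranges of these genes over the 4 libraries did not touch each other or that of the next gene. Ppp3cb (39.9 FPKM), Stim1 (38.1) and Orai1 (37.5) had overlapping ranges and could not be ordered. Nfatc2 (29.7 FPKM) overlapped with Orai1 and with Stim2 (22.5 FPKM) in range, although within each of the 4 libraries it lay below Orai1 and above Stim2. Rcan1 (9.26 FPKM) and Ppp3ca (9.03 FPKM) were lowest and overlapped. Among tested genes, the mean level of Nfatc1 exceeded that of 96.0%, and that of Ppp3ca 34.4%.

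Among the NFAT factors, Nfatc2 had the largest difference and Nfatc3 the smallest. Nfatc2, a factor already present in resting T cells (chromosome 2, 168476410 to 168601657, GRCm38), was at 27.4 and 24.7 FPKM in Apoe-/- cells, against 35.2 and 31.4 FPKM in WT cells. Both Apoe-/- libraries were below both WT libraries. The group means were 26.0 ± 1.91 and 33.3 ± 2.66 FPKM (SD, n = 2 each), a ratio of 0.781, and the log2 difference was -0.34 ± 0.12 (SE; 95% interval -0.63 to -0.05; limma adjusted p = 0.197). Nfatc1, on chromosome 18, encodes the factor that activated T cells induce through NFAT itself, and it is also expressed in B cells. It was at 160.1 and 139 FPKM in Apoe-/- cells, against 175 and 151 FPKM in WT cells. Its groups overlapped, since Apoe-/- replicate 1 lay above WT replicate 2, and the log2 difference was -0.13 ± 0.12 (95% interval -0.43 to 0.18; limma adjusted p = 0.608). Nfatc3 (chromosome 8, 106058840 to 106130537), a factor prominent in developing T cells, was at 77.7 and 94.0 FPKM in Apoe-/- cells, against 78.1 and 88.6 FPKM in WT cells. The Apoe-/- libraries enclosed the WT libraries (log2 difference 0.04 ± 0.13, 95% interval -0.29 to 0.37, limma adjusted p = 0.898), and rescaling the libraries to one FPKM total turned the sign.

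Of the calcineurin genes, Ppp3ca was lower in both Apoe-/- libraries, whereas Ppp3cb and Ppp3r1 had nearly equal group means. Ppp3ca (chromosome 3, 136670124 to 136937727), the alpha form of the catalytic subunit, was at 7.67 and 7.48 FPKM in Apoe-/- cells, against 8.82 and 12.2 FPKM in WT cells. WT replicate 2 was high relative to WT replicate 1, so the WT spread (10.5 ± 2.37 FPKM) was wide beside that of Apoe-/- cells (7.57 ± 0.137 FPKM). The log2 difference of -0.41 ± 0.17 (95% interval -0.83 to 0.01; limma adjusted p = 0.263) was -0.18 between libraries numbered 1 and -0.64 between those numbered 2. It was -0.20 without WT replicate 2 and -0.62 without WT replicate 1. Ppp3cb (chromosome 14, 20499364 to 20546573), the beta form, was at 35.2 and 45.2 FPKM in Apoe-/- cells, against 35.7 and 43.6 FPKM in WT cells. Ppp3r1 (chromosome 11, 17159263 to 17200375), the regulatory B subunit that binds calcium, was at 51.0 and 66.7 FPKM in Apoe-/- cells, against 49.8 and 69.3 FPKM in WT cells. For both genes the libraries of one genotype differed more from each other than the group means did. Their log2 differences were 0.01 (95% interval -0.40 to 0.43; limma adjusted p = 0.973) and -0.01 (95% interval -0.52 to 0.50; limma adjusted p = 0.986). The sign turned for Ppp3cb with rescaling to one FPKM total and for Ppp3r1 with quantile normalization. These intervals are wide, and equal levels are not shown.

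Rcan1, a regulator that binds calcineurin and restrains it, is itself a classic target of NFAT in many cell types. Its short form starts within the gene, downstream of the start of the long form. Rcan1 lies on chromosome 16 at 92391953 to 92470867, on the minus strand. Both start windows held in RefSeq (GRCm38.p6, from 250 bases before to 50 after a start) are printed because the deposited table has 1 value for the gene. Capitals mark the NFAT core GGAAA on either strand (GGAAA or TTTCC) and the AP-1 site TGACTCA on either strand (TGACTCA or TGAGTCA), which do not overlap here.
Rcan1 upstream start, chr16:92466120-92466419, minus strand: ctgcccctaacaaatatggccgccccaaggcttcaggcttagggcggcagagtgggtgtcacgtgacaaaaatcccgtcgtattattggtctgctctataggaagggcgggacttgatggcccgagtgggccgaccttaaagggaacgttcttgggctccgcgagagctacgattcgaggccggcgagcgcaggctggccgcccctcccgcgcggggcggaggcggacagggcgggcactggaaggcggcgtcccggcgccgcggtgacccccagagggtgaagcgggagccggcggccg
Rcan1 internal start, chr16:92400029-92400328, minus strand: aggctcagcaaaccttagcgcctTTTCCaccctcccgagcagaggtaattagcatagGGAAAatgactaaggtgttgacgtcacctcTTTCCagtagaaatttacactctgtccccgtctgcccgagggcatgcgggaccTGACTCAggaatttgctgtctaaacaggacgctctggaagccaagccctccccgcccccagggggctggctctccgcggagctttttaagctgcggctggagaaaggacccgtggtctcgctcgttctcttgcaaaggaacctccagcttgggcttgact
The upstream window held 0 NFAT cores and 0 AP-1 sites. The internal window held 3 NFAT cores and 1 AP-1 site, where 9.42% of the 32851 RefSeq start windows hold 3 or more of the first and 5.20% hold 1 or more of the second. A match of letters is a description of the window and not of binding.

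Rcan1 was at 8.69 and 9.16 FPKM in Apoe-/- cells, against 9.37 and 9.80 FPKM in WT cells. The groups did not overlap, but the gap was small: the ratio of the means was 0.931 and the log2 difference -0.09 ± 0.11 (95% interval -0.37 to 0.18; limma adjusted p = 0.682). This single value does not separate the 2 starts, so a shift between the forms could not be seen in these values.

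All 3 store-operated calcium entry genes were lower in both Apoe-/- libraries than in either WT library, as were 22.9% of tested genes. None of the 3 passed the test. Of 20 other tested calcium entry and release genes, 11 were higher without overlap and 4 lower, against 27.5% and 22.9% of tested genes. Orai1, the pore subunit of the calcium channel (chromosome 5, 123015074 to 123030456), was at 33.6 and 30.8 FPKM in Apoe-/- cells, against 47.3 and 38.2 FPKM in WT cells. Its group means were 32.2 ± 1.99 and 42.7 ± 6.41 FPKM, a ratio of 0.753 (log2 difference -0.39 ± 0.14 SE, 95% interval -0.73 to -0.05, limma adjusted p = 0.207). WT replicate 1 stood above the other 3 libraries, and the difference was -0.24 without it and -0.54 without WT replicate 2. Stim1, the main sensor of calcium in the endoplasmic reticulum (chromosome 7, 102267806 to 102437319), was at 37.1 and 35.1 FPKM in Apoe-/- cells, against 41.8 and 38.6 FPKM in WT cells. The log2 difference of Stim1 was -0.15 ± 0.10 (95% interval -0.41 to 0.11; limma adjusted p = 0.474). Stim2, a sensor that responds to smaller losses of stored calcium (chromosome 5, 53998499 to 54121057), was at 19.9 and 22.0 FPKM in Apoe-/- cells, against 22.8 and 25.4 FPKM in WT cells. Its log2 difference was -0.19 ± 0.12 (95% interval -0.48 to 0.10; limma adjusted p = 0.416). In bulk samples, fewer cells of a type and less RNA per cell cannot be told apart.

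**Figure D2:**
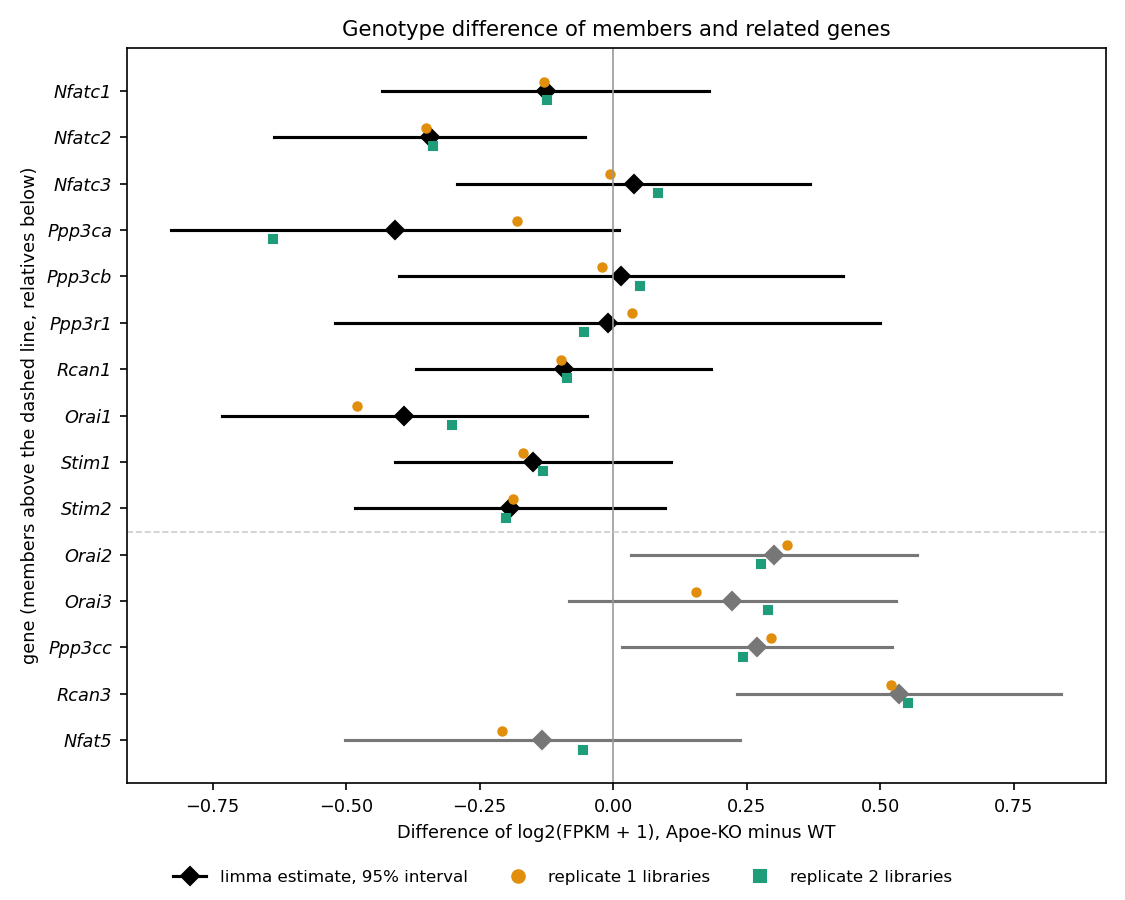
Difference of log2(FPKM + 1), Apoe-KO minus WT, for the 10 pathway genes (black, above the dashed line) and 5 related genes (grey); diamonds are limma estimates with 95% intervals, circles the libraries numbered 1 and squares those numbered 2. The largest negative estimates are those of Ppp3ca (-0.41), Orai1 (-0.39) and Nfatc2 (-0.34). Of the related genes, Orai2, Orai3, Ppp3cc and Rcan3 lie above 0, and Nfat5 lies at -0.13.

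The relatives of 3 of these genes lay on the other side of 0. Orai2 and Orai3, Ppp3cc and Rcan3 belong to the lists of pathway genes, and Orai2, Orai3 and Ppp3cc were singled out after their values were seen. Orai2, a second ORAI channel subunit that in mouse T cells tempers the current through Orai1, was at 47.3 and 42.8 FPKM in Apoe-/- cells, against 37.5 and 35.1 FPKM in WT cells. Its log2 difference was 0.30 ± 0.11 (95% interval 0.03 to 0.57; limma adjusted p = 0.211). Orai1 thus made up 34.0% and 34.0% of the summed Orai1, Orai2 and Orai3 FPKM in Apoe-/- cells, against 46.9% and 43.9% in WT cells. The most abundant of the 3 was Orai2 in both Apoe-/- libraries and Orai1 in both WT libraries. The sum of the 3 was 98.7 and 90.4 FPKM in Apoe-/- cells, within the span of the WT libraries at 101 and 86.9 FPKM. Orai3, a further channel subunit, was at 17.8 and 16.9 FPKM in Apoe-/- cells, against 15.9 and 13.6 FPKM in WT cells (limma adjusted p = 0.382). The start windows of Orai1 and Orai2 are printed because these are the genes between which the make-up of the family differed, with motifs marked as above.
Orai1 start, chr5:123014824-123015123, plus strand: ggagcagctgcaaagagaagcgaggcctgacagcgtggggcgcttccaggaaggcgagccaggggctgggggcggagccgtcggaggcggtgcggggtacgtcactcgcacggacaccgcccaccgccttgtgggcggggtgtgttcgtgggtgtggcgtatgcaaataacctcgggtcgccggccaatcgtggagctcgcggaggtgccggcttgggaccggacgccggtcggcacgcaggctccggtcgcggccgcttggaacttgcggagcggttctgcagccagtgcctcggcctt
Orai2 start, chr5:136170607-136170906, minus strand: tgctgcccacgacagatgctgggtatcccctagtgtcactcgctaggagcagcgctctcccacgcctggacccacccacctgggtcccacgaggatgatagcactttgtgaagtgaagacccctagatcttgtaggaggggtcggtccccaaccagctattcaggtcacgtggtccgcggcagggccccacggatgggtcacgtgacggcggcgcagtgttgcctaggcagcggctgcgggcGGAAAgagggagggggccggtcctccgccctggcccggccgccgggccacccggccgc
The Orai1 window held 0 NFAT cores and the Orai2 window 1, where 61.3% of all start windows hold 1 or more, and neither held the AP-1 site. RefSeq start windows were matched for 8 of the 10 pathway genes, 11 windows in all. Of these 11 windows, 6 held 0 NFAT cores and 5 (45.5%) held 1 or more. The most were the 4 of Ppp3cb, where 2.65% of all start windows hold 4 or more.

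The shares of Ppp3ca and Rcan1 in their families were also lower in both Apoe-/- libraries. Ppp3cc, the gamma form of the catalytic subunit, was at 43.5 and 45.2 FPKM in Apoe-/- cells, against 35.2 and 38.0 FPKM in WT cells (log2 difference 0.27 ± 0.10, 95% interval 0.02 to 0.52, limma adjusted p = 0.230). Ppp3ca supplied 8.88% and 7.64% of the summed FPKM of the 3 catalytic subunit genes in Apoe-/- cells, against 11.1% and 13.0% in WT cells. Rcan3, a relative of Rcan1, was at 8.997 and 10.01 FPKM in Apoe-/- cells, against 5.97 and 6.51 FPKM in WT cells. Its log2 difference was 0.54 ± 0.12 (95% interval 0.23 to 0.84; limma adjusted p = 0.102), the largest among the 10 tested genes of its list. Rcan1 made up 49.1% and 47.8% of the summed Rcan FPKM in Apoe-/- cells, against 61.1% and 60.1% in WT cells, and Rcan2 was listed at 0 in all libraries. Unlike the Orai sum, the Rcan sum was higher in both Apoe-/- libraries, at 17.7 and 19.2 FPKM, against 15.3 and 16.3 FPKM in WT cells, with a ratio of means of 1.52 for Rcan3 and 0.931 for Rcan1. The summed catalytic subunits were at 86.3 and 97.9 FPKM in Apoe-/- cells, against 79.8 and 93.8 FPKM in WT cells, and overlapped. None of these relatives passed the test. The shares are descriptions of 2 libraries per genotype.

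**Figure D3:**
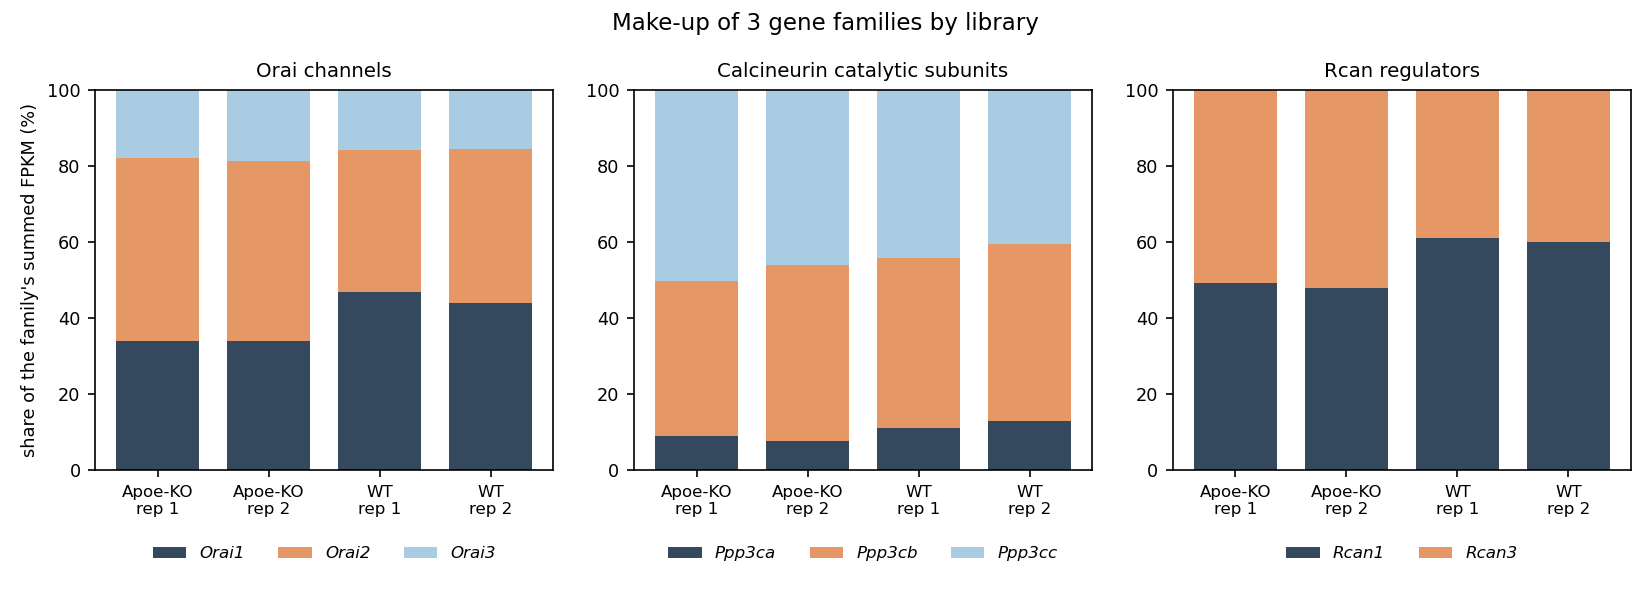
Share of each gene in the summed FPKM of its family, in percent, for each library. Orai1 makes up 34.0% and 34.0% in the Apoe-KO libraries and 46.9% and 43.9% in the WT libraries, and Rcan1 49.1% and 47.8% against 61.1% and 60.1%.

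For most of the 10 genes, the difference between the libraries numbered 2 and 1 had the same sign in both genotypes. The library numbered 2 was above the one numbered 1 in both genotypes for 5 genes and below it in both for 4 genes, 9 of 10 in all, where 77.5% of tested genes had the same sign in both genotypes. Ppp3r1 was higher in the library numbered 2 by 0.38 in Apoe-/- and by 0.47 in WT cells on the log2(FPKM + 1) scale. Nfatc1 was lower there by a like amount in each genotype, -0.21 and -0.21. Ppp3ca was the exception, with -0.03 in Apoe-/- and 0.42 in WT cells. For 4 of the 10 genes (Nfatc1, Nfatc3, Ppp3cb and Ppp3r1) the mean difference between the numbers exceeded that between the genotypes, as it did for 45.6% of tested genes, and for the other 6 it was the smaller. Over all tested genes, libraries of one genotype correlated more closely (Pearson r = 0.984 in Apoe-/- and 0.981 in WT) than libraries of one number (0.972 for number 1 and 0.975 for number 2), across genes that are not independent replicates. The labels do not say what the numbers share.

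**Figure D4:**
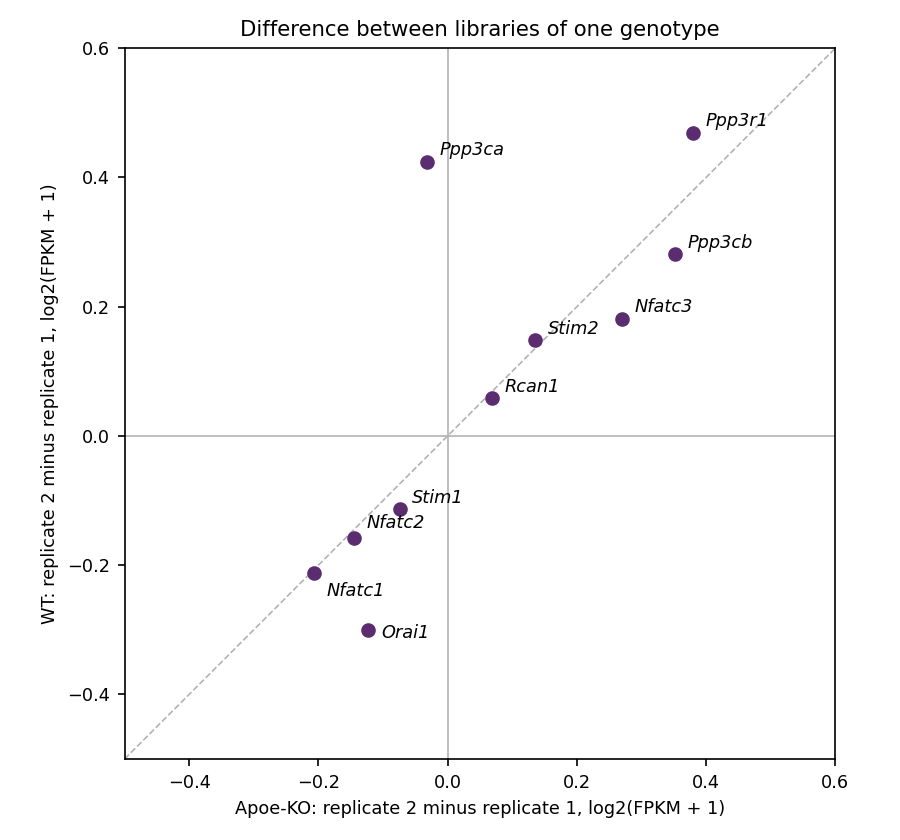
Difference of log2(FPKM + 1) between replicate 2 and replicate 1 within Apoe-KO (horizontal) and within WT (vertical) for the 10 pathway genes; the dashed line marks equal values. All but Ppp3ca (-0.03 and 0.42) lie in the quadrants of equal sign, with Ppp3r1 highest at 0.38 and 0.47.

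The other genes of the pathway also had no call in the signaling steps. Of 10 tested further NFAT and calcineurin family genes, 0 rose, 0 fell and 10 did not pass (2 higher and 0 lower at an unadjusted p under 0.05; median log2 difference 0.05). Calm2, one of the calmodulin genes, had the largest negative difference, at 177 and 249 FPKM in Apoe-/- cells, against 223 and 286 FPKM in WT cells (limma adjusted p = 0.520). Nfat5, the calcium-independent NFAT relative that responds to osmotic stress, was at 24.4 and 30.9 FPKM in Apoe-/- cells, against 28.4 and 32.2 FPKM in WT cells. The log2 difference of Nfat5 was -0.13 ± 0.15 (limma adjusted p = 0.661). Nfatc4 was listed at 0 in 3 libraries. Calcium entry and release genes other than the 3 described gave 0 rising and 0 falling of 20 tested (4 higher and 4 lower unadjusted; median 0.15). Their extremes were Kcnn4, a calcium-activated potassium channel that sustains calcium entry, at 103 and 82.9 FPKM in Apoe-/- cells, against 149.5 and 127 FPKM in WT cells (log2 difference -0.57 ± 0.15, limma adjusted p = 0.124), and the plasma membrane calcium pump Atp2b4. Without Apoe-/- replicate 1, Kcnn4 had limma adjusted p = 0.0283 (range over 12 alternatives 0.00174 to 0.339). Atp2b4 was at 17.3 and 18.0 FPKM in Apoe-/- cells, against 12.1 and 12.6 FPKM in WT cells (0.48 ± 0.10, limma adjusted p = 0.0966).

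Of 9 tested kinases and scaffolds that act on NFAT, 0 rose and 0 fell (1 higher and 3 lower unadjusted, median -0.23). Csnk1e, a casein kinase 1 form, was at 13.5 and 14.3 FPKM in Apoe-/- cells, against 10.8 and 9.87 FPKM in WT cells (limma adjusted p = 0.151). Lrrk2, a kinase that retains NFAT in the cytoplasm of macrophages, was at 2.40 and 2.86 FPKM in Apoe-/- cells, against 3.81 and 4.63 FPKM in WT cells (limma adjusted p = 0.148). It is also expressed in B cells, whose 8 markers summed to 199 and 188 FPKM in Apoe-/- cells, against 321 and 313 FPKM in WT cells; their part in these differences was not tested.

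Among genes that NFAT factors are known to act on in T cells, 4 fell in Apoe-/- cells, namely Nr4a1, Nr4a2, Nr4a3 and Il4. They were 4 of 22 tested genes of the list, with 0 rising and 18 not passing (5 higher and 8 lower unadjusted), and the list's median was -0.12 against 0.00 over all tested genes. Their fall was known when the list was made, so the count is no independent evidence. Nr4a3, an orphan nuclear receptor induced by antigen receptor signaling, was at 11.9 and 11.8 FPKM in Apoe-/- cells, against 105 and 91.4 FPKM in WT cells. Nr4a2, its relative, was at 18.1 and 16.7 FPKM in Apoe-/- cells, against 44.9 and 42.3 FPKM in WT cells. Nr4a1, the third of the family, was at 122 and 96.8 FPKM in Apoe-/- cells, against 243 and 199.9 FPKM in WT cells. Both Apoe-/- libraries were far below both WT libraries for each. The log2 differences were -2.94 ± 0.11, -1.28 ± 0.11 and -1.01 ± 0.16 in that order (limma adjusted p = 0.00211, 0.0142 and 0.0496). The Nr4a1 call ended without WT replicate 1 (adjusted p = 0.0896) and in 4 settings that kept all libraries (0.0514 to 0.102), over a full range of 0.000545 to 0.102.

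Il4, the cytokine gene that helper T cells switch on through NFAT and AP-1, was at 12.6 and 13.1 FPKM in Apoe-/- cells, against 32.4 and 38.9 FPKM in WT cells (log2 difference -1.40 ± 0.13, limma adjusted p = 0.0148). Other targets gave no call and lay on both sides of 0, with the following examples, apart from Lag3, chosen after their values were seen. Il21, the main Tfh cytokine, was at 69.5 and 86.3 FPKM in Apoe-/- cells, against 69.0 and 85.6 FPKM in WT cells, with a log2 difference of 0.01. Irf4, a factor that scales with antigen receptor signal strength, was at 19.2 and 18.6 FPKM in Apoe-/- cells, against 28.7 and 30.5 FPKM in WT cells (-0.62 ± 0.10, limma adjusted p = 0.0594). On the higher side, the coinhibitory receptor gene Lag3 was at 172 and 143 FPKM in Apoe-/- cells, against 98.7 and 82.4 FPKM in WT cells (0.80 ± 0.14, limma adjusted p = 0.0697). Without Apoe-/- replicate 2, Lag3 had limma adjusted p = 0.00390 (range over 12 alternatives 0.000809 to 0.198). Egr2 and Egr3, early growth response factors downstream of NFAT, had log2 differences of -0.29 and -0.45 (limma adjusted p = 0.274 and 0.118). Ifng, encoding interferon gamma, was at 127 and 138 FPKM in Apoe-/- cells, against 83.7 and 92.6 FPKM in WT cells (limma adjusted p = 0.0693).

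**Figure D5:**
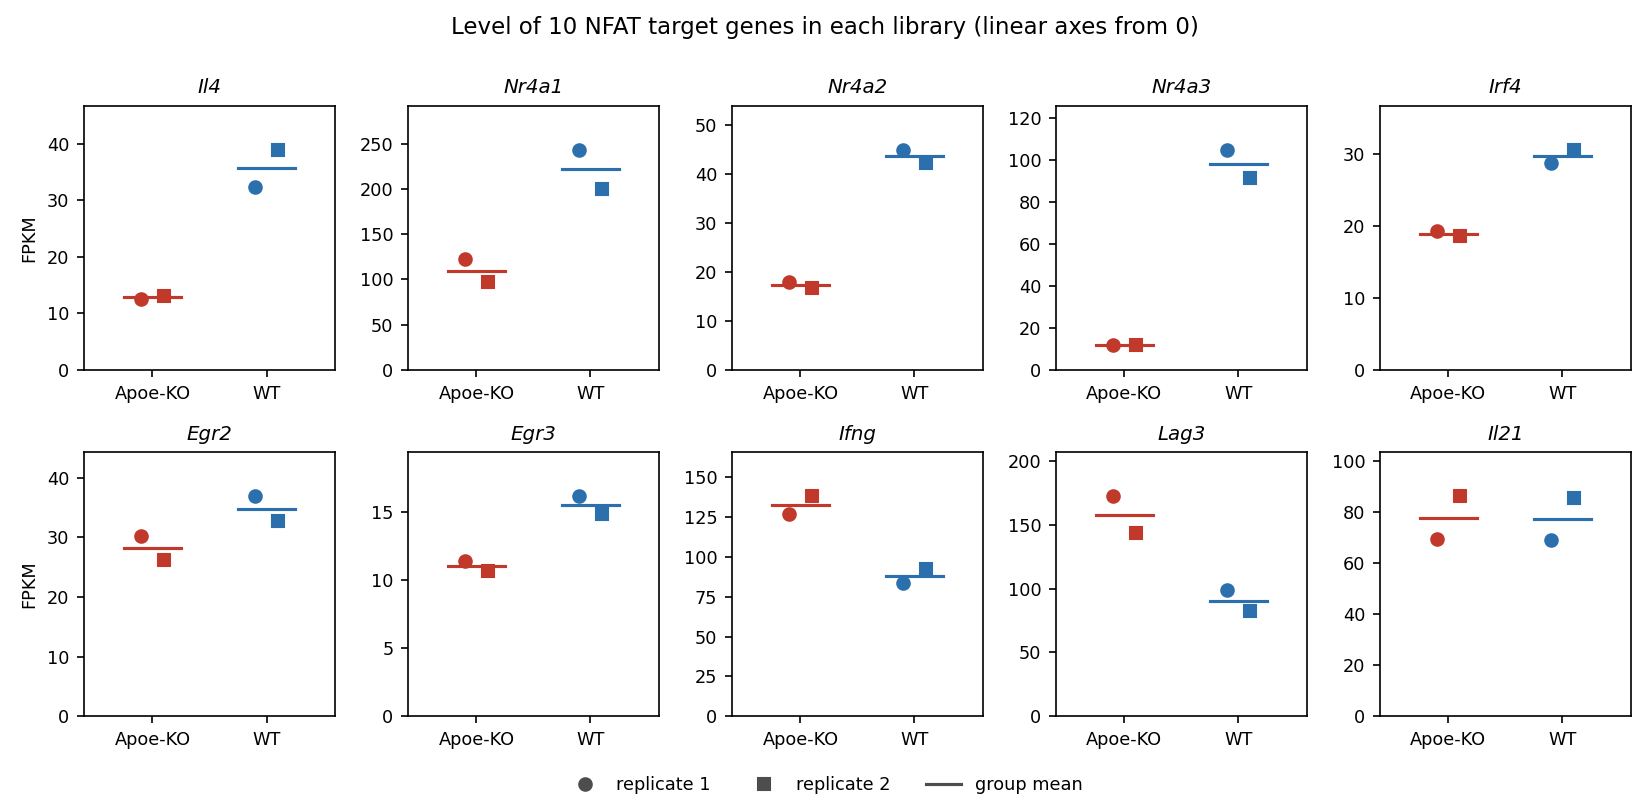
FPKM of 10 NFAT target genes in each library, with Apoe-KO in red and WT in blue; replicate 1 is a circle, replicate 2 a square, and the line is the group mean. Nr4a3 shows the widest gap (11.9 and 11.8 against 105 and 91.4 FPKM), Lag3 and Ifng are higher in Apoe-KO, and Il21 overlaps.

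Defining genes of the labelled cells were present, and markers of other cells differed between the genotypes. Apoe was at 5.09 and 5.21 FPKM in Apoe-/- cells, against 145 and 128 FPKM in WT cells. Cd4 (406 and 408 FPKM in Apoe-/-, 368 and 365 in WT) and the Tfh genes Cxcr5 (223 and 204, against 176 and 162) and Bcl6 (116 and 108, against 94.1 and 96.4) were high in all libraries, and 0 of 9 T and Tfh cell markers passed (2 higher and 1 lower unadjusted). The list went both ways: Pdcd1, the PD-1 receptor gene of Tfh cells, had its largest difference, at 203 and 179 FPKM in Apoe-/- cells, against 283 and 260 FPKM in WT cells (log2 difference -0.50 ± 0.10, limma adjusted p = 0.0887). Sh2d1a, which encodes the adaptor SAP, was at 224 and 227 FPKM in Apoe-/- cells, against 237 and 265 FPKM in WT cells (limma adjusted p = 0.431), and both genes were named after their values were seen. Of 8 B cell markers 3 fell by limma adjusted p (median log2 difference -0.73). All 8 were lower without overlap and at an unadjusted p under 0.05, against 22.9% and 8.27% of tested genes. The 9 macrophage, monocyte and neutrophil markers summed to 167 and 185 FPKM in Apoe-/- cells, against 112 and 107 FPKM in WT cells, and 2 rose, the neutrophil and monocyte genes S100a8 (20.8 and 29.4 FPKM in Apoe-/-, 2.77 and 2.29 in WT) and S100a9 (21.6 and 28.0, against 4.57 and 3.06). Without these 2, a choice made after seeing the values, the sums were 124 and 128 FPKM in Apoe-/- cells, against 105 and 101 FPKM in WT cells. Of all 9 markers of this list, 6 were higher and 1 was lower without overlap, against 27.5% and 22.9% of tested genes. Among the 6 were Lyz2 (43.2 and 48.4 FPKM in Apoe-/-, 29.9 and 31.7 in WT) and Csf1r (30.0 and 28.7, against 25.1 and 23.7). The 1 lower was the macrophage gene Adgre1, under its older symbol Emr1, named after its values were seen. Adgre1 was at 9.03 and 9.94 FPKM in Apoe-/- cells, against 10.1 and 11.2 FPKM in WT cells (limma adjusted p = 0.544). The 8 markers of CD8 T and NK cells summed to 77.4 and 82.3 FPKM in Apoe-/- cells, against 39.3 and 36.0 FPKM in WT cells. Most of this sum was Nkg7, at 54.6 and 52.8 FPKM in Apoe-/- cells, against 24.1 and 20.3 FPKM in WT cells. Cd8a, too low for the test, was at 0.828 and 1.32 FPKM in Apoe-/- cells, against 0.673 and 0.517 FPKM in WT cells. Eomes overlapped between the genotypes. Of 6 tested markers of this list, 1 rose (Nkg7), with 4 higher and 0 lower unadjusted. The 6 dendritic cell markers summed to 16.6 and 17.7 FPKM in Apoe-/- cells, against 8.20 and 7.73 FPKM in WT cells. The largest part was Itgax, at 9.12 and 9.15 FPKM in Apoe-/- cells, against 3.84 and 3.49 FPKM in WT cells. Clec9a, too low for the test, overlapped, at 0.739 and 0.596 FPKM in Apoe-/- cells, against 0.715 and 0.562 FPKM in WT cells. Of 4 tested markers of this list, 1 rose (Itgax), with 3 higher and 0 lower unadjusted. Over all tested genes, 11.6% were higher unadjusted. No listed marker was at 0 in all libraries. The part of these cells in the differences of the 10 pathway genes was not tested.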

How the data were processed

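RNA sequencing libraries of Tfh cells, 2 Apoe-/- and 2 WT, were read from 1 deposited table of FPKM values, which the authors had scaled for gene length and mapped fragments. Per the submitters' processing notes, the tools were Cuffdiff 2.2.0, TopHat2 2.0.13 and CASAVA 1.8.2 and the build was mm10, without roles or settings. For annotation, strand setting and filters, nothing is given in the sources used here. FPKM are not counts, so no count model was used. In 2 rows a space stood for a tab and was read as one. Summed FPKM ran from 522371 to 551289 per library, and 11084 to 11251 genes reached 1 FPKM. Sequencing depth is unknown. Among values of 0.001 to 0.15 FPKM, the libraries numbered 1 shared 1 ratio in 16.3% of genes low in both and those numbered 2 in 12.5%, against 2.74% to 3.73% for the other 4 pairs (within 0.04 on the log2 scale), and whole reads were not recovered.

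Values were analysed as log2(FPKM + 1) for genes averaging at least 1 FPKM, with limma 3.58.1 in R 4.3.3 (lmFit, eBayes with trend, two-sided, no block), adjusted by Benjamini-Hochberg over 11187 genes at a threshold of 0.05. Differences on this scale understate changes of low genes. The procedure was tested on simulated data in which noise was independent between libraries. Its planted changes were larger than any difference of the 10 genes, so it cannot show whether changes of their size would be found. An exact permutation test of 2 against 2 libraries cannot go below p = 0.333, and none was run. The 10 genes and all lists were chosen with earlier results of these data known. Of 120 list symbols all were found, 5 under older names. Named are the 10 genes, every called gene and both extremes of each pathway list, and defining markers, of which a B cell marker is not reported here. Coordinates are from GENCODE M21 (GRCm38) and start windows from RefSeq (GRCm38.p6). Tried as alternatives were other pseudocounts and filters, rescaling to one FPKM total, quantile normalization, no variance trend, the replicate block and leaving out each library.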

Additional observations from a re-analysis of the deposited data

How the results depend on the processing

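Over 12 alternatives to the settings used, 0 of the 10 pathway genes were called higher in any. None was called lower in the 11 alternatives without the replicate block, those leaving out 1 library included (0 in both directions). With a replicate block, for which the labels give no basis, 4 were called lower: Nfatc1 (adjusted p = 0.0393), Nfatc2 (0.00865), Orai1 (0.0107) and Stim2 (0.0443). That fit called 1908 genes higher and 1776 lower, 17.1% and 15.9% of those tested, and of the NFAT target genes 6 higher and 10 lower. It called 3 higher and 2 lower of the other NFAT and calcineurin family genes. Of the calcium entry and release genes it called 6 higher and 4 lower. Of the kinases and scaffolds that act on NFAT it called 1 higher and 4 lower. Among these calls were Orai2 (limma adjusted p = 0.0101), Ppp3cc (0.0135) and Rcan3 (0.00841), each higher. Deviations of same-numbered libraries from their group means had a Pearson correlation of 0.21 across genes, which are not independent replicates. The difference between the numbers had the same sign in both genotypes for 77.5% of tested genes. Same-numbered libraries shared 1 ratio in 16.3% and 12.5% of genes low in both, against at most 3.73% for other pairs. With 2 pairs these values do not establish a pairing, and what the numbers share is unknown. The counts over all genes were 106 higher and 99 lower. They were 35 and 41 with no FPKM filter, and 51 were higher with a mean FPKM of 5 or more, where other sets of genes were tested. Leaving out 1 library gave 54 to 317 higher and 61 to 301 lower, and 3 to 4 NFAT target genes lower; the remaining library of that genotype was then taken to vary as the others do.

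The sign of 3 near-zero differences turned. Nfatc3 had -0.0088 with libraries rescaled to one FPKM total, -0.10 without Apoe-/- replicate 2 and -0.05 without WT replicate 1, and ran from -0.10 to 0.17 with 1 library left out. Ppp3cb had -0.032, -0.16 and -0.13 under the same changes and ran from -0.16 to 0.19. Ppp3r1 had 0.027 with quantile normalization, 0.18 without Apoe-/- replicate 1 and 0.22 without WT replicate 2, and ran from -0.24 to 0.22. Outside the pathway, Cd3e ran from -0.0034 without Apoe-/- replicate 1 to 0.12. The cause was not tested. The other 7 pathway genes were lower in Apoe-/- cells in all 12 alternatives. Orai1 ran from -0.54 to -0.24, Nfatc2 from -0.42 to -0.26 and Ppp3ca from -0.62 to -0.20. For the 6 whose groups did not overlap, neither leaving out a library nor another pseudocount could turn the sign. The other filters, no variance trend and the replicate block leave a gene's estimate as it was. The steady sign is thus largely fixed by the values and no separate support. The median over the 10 genes stayed between -0.19 and -0.12. Depth is unknown, and the intervals rest on 2 libraries per genotype.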

Other observations

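Among pathway genes too low for the test, Ryr1, a calcium release channel of the endoplasmic reticulum best known from muscle and also present in dendritic and B cells, was at 1.08 and 0.995 FPKM in Apoe-/- cells, against 0.236 and 0.234 FPKM in WT cells. Its mean level was 4.41 times as high in Apoe-/- cells. Its mean over all libraries, 0.635 FPKM, was under the minimum of 1. With no FPKM filter, limma gave a log2 difference of 0.72 ± 0.06 (SE, n = 2 each) and adjusted p = 0.0467, and Ryr1 was singled out after its values were seen. Dendritic cell markers, with Itgax the largest part, summed to 16.6 and 17.7 FPKM in Apoe-/- cells, against 8.20 and 7.73 FPKM in WT cells. The part of dendritic cells in the Ryr1 difference was not tested. Il2, a classic NFAT target, was at 0.487 and 1.22 FPKM in Apoe-/- cells, against 0.402 and 0.530 FPKM in WT cells, and the Apoe-/- and WT libraries overlapped.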
